A study of Mus musculus with 12 samples.

Results

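Messenger RNA levels of 8 genes that act together in T cell identity were followed in mouse CD4+ T cells activated without polarizing cytokines (Th0) or cultured toward T helper 17 (Th17) or induced regulatory T (iTreg) cells. The genes were chosen by name: the RUNX transcription factors Runx1, Runx2, and Runx3, their shared partner Cbfb, the inhibitors of DNA binding Id2 and Id3, and the E proteins Tcf3 and Tcf12. All 8 were found among the 11077 genes listed for Th17 and Th0 cells and among the 11056 genes listed for iTreg and Th0 cells. All 8 passed the filter on low values (more than 1 FPKM, a read count corrected for gene length and library depth, in at least 4 of the 8 libraries) in the first table, Runx2 only through its Th17 libraries. In the table of iTreg and Th0 cells, 7 passed, since Runx2 stayed below 1 FPKM in all but 1 iTreg library and in every Th0 library.

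Naïve CD62L+ CD4+ T cells came from the spleens of C57BL/6 mice aged 8 to 10 weeks. All cultures received 1 µg/ml of antibody to CD3 and 1 µg/ml of antibody to CD28, and RNA was taken at day 3. Th0 cells received nothing else. Th17 cells additionally received IL6 (30 ng/ml), TGFβ1 (5 ng/ml), and neutralizing antibodies to IL4 and IFNγ (10 µg/ml each), and iTreg cells received IL2 (10 ng/ml) and TGFβ1 (10 ng/ml in the labels, 20 ng/ml in the methods text). Each group had 4 libraries, named here by the beginning of their column headings (M22, M29, M42, and M43), and values are listed in that order. The effects of single cytokines or antibodies within a culture condition cannot be told apart. The cultures were measured in bulk, so a change in the share of cells that express a gene and a change in RNA per cell cannot be told apart either.

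RUNX proteins bind DNA through their Runt domain and need CBFβ, which does not touch DNA itself, for stable binding. In CD4+ T cells RUNX complexes act on Cd4, Il2, and Foxp3, and Runx3 with Thpok (encoded by Zbtb7b) is known for separating CD8 from CD4 lineage programs. E proteins bind E-boxes as dimers through a helix-loop-helix domain next to a basic region. ID proteins keep the helix-loop-helix domain but lack the basic region, so a dimer with an ID protein cannot bind DNA. Id2 and Id3 are therefore antagonists of E2A (encoded by Tcf3) and HEB (encoded by Tcf12).

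The promoter sequences of Runx1 and Runx3 are shown because both genes are transcribed from a distal and a proximal promoter and can carry RUNX sites of their own. They are the parts of RefSeq windows of 250 bases before a start that lie outside annotated exons (mouse GRCm38.p6, 5′ to 3′ on the strand of the gene). Capitals mark RUNX hexamers (TGTGGT or TGCGGT, or their reverse complements ACCACA and ACCGCA) and E-boxes (CANNTG, which reads the same pattern on both strands and includes CAGCTG and CACCTG). The Runx3 distal stretch is at chr4:135120448-135120644 on the plus strand, the Runx3 proximal stretch at chr4:135152295-135152495 on the plus strand, and the Runx1 distal stretch at chr16:92826150-92826324 on the minus strand. The Runx1 proximal window (chr16:92697330-92697579, minus strand) held none of the motifs searched and is not printed.
Runx3 distal: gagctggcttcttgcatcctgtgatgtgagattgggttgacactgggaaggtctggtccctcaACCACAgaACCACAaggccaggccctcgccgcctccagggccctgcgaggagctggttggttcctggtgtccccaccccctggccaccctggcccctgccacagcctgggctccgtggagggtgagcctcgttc
Runx3 proximal: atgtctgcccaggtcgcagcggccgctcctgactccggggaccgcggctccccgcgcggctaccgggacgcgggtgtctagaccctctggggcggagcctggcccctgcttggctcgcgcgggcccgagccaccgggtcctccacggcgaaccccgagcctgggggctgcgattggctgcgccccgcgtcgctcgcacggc
Runx1 distal: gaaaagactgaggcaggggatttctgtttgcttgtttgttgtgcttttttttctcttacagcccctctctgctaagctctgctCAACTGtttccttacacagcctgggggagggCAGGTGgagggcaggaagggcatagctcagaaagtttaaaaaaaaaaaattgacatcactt
The Runx3 distal stretch held ACCACA at 134 and at 126 bases before the start, while the proximal stretch held none of the motifs searched, and the Runx1 distal stretch held CAACTG and CAGGTG. Over all 12 windows of the 8 genes, 2 held a RUNX hexamer (Runx2 and distal Runx3) and 7 held CANNTG, and the ACCACA of Runx2 overlapped a CANNTG. Of 32851 windows of all genes, 14% held TGTGGT, 5.1% held TGCGGT, 13.0% held CAGCTG, 17.2% held CACCTG, and 66.2% held CANNTG on either strand. These matches describe letters, and no binding was measured.

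Lineage genes were checked first. Il17f, a cytokine of Th17 cells, ranged from 281 to 788 FPKM in Th17 libraries and from 0.0909 to 0.184 FPKM in Th0 libraries, and was also present in iTreg libraries, at 26.9 to 99.2 FPKM. Foxp3, the factor that defines regulatory T cells, ranged from 62.0 to 91.7 FPKM in iTreg libraries. Th17 library M43 stood apart, with Foxp3 at 42.5 FPKM against 0.499, 0.502, and 4.5 FPKM in the other Th17 libraries. Of 13 markers of CD8 T, B, NK, and myeloid cells, 3 were listed in the Th17 table, with summed levels of 3.95 to 9.01 FPKM in Th17 and 3.37 to 10.3 FPKM in Th0 libraries. Those listed for iTreg and Th0 cells were 2, with sums of 2.95 to 6.66 FPKM in iTreg and 3.21 to 10.0 FPKM in Th0 libraries. Cd8a, Ncr1, Klrb1c, and Lyz2 were in neither table, and of 7 CD4 T cell markers 6 were listed in both. Relative depth was read from the steps of low FPKM values, and ran from 0.843 to 1.08 times the median library in the Th17 table and from 0.825 to 1.19 in the iTreg table.

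In Th17 cells compared to Th0, 5 of the 8 genes were DE: Runx1, Runx2, Runx3, and Id2 were up-regulated and Id3 was down-regulated. Here DE means an adjusted p below 0.05 in limma, and 19.3% of the 10269 genes tested met this (10.6% up and 8.69% down). Leaving out Runx2, which passed the filter on low values through its Th17 libraries alone, 4 of 7 genes were DE. The same 5 genes (4 of 7 without Runx2) had Th17 and Th0 libraries that did not overlap, as did 23.8% of the genes tested. In iTreg cells compared to Th0, 2 of 7 genes were DE, Runx1 upward and Id3 downward, against 16.6% of the 10208 genes tested (8.36% up and 8.21% down). With the heading beginning as a block in limma, Id2 (up) and Cbfb (down) were also DE in iTreg cells, which makes 4 of 7, while the background rose to 40.9% (20.9% up and 20% down). The block raised the background in Th17 cells to 37.8% (19.2% up and 18.6% down) and left 5 of 8 genes DE. In 4 of the 7 genes tested (Runx1 and Id2 above, Id3 and Cbfb below) iTreg and Th0 libraries did not overlap, as in 22.8% of all genes tested. Runx2, not tested there, overlapped. Both comparisons use the same 4 Th0 libraries.

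**Figure D1:**
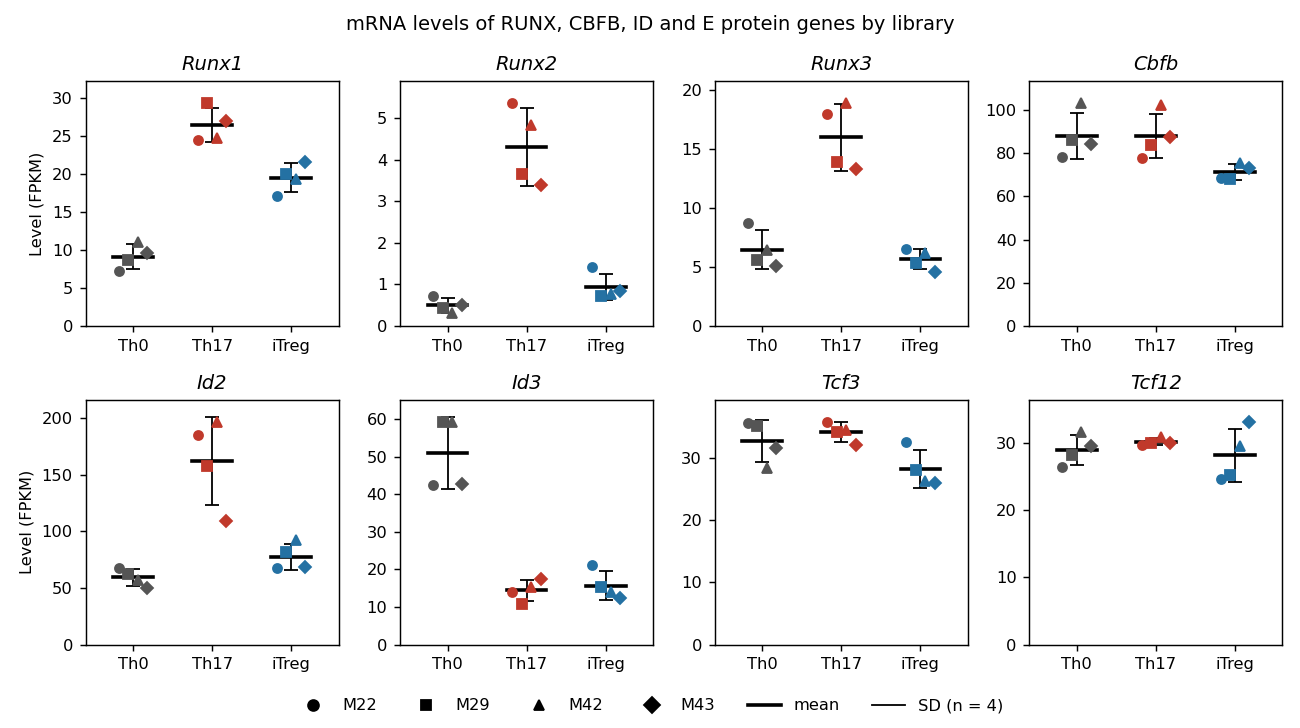
FPKM of the 8 genes in each library, with Th0, Th17, and iTreg libraries as separate points and the mean of each group as a bar. Runx1, Runx2, Runx3, and Id2 are higher in all 4 Th17 libraries than in any Th0 library, and Id3 is lower in all 8 polarized libraries.

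Runx1 (chr16:92601466-92826149, minus strand, GRCm38) encodes the RUNX factor long known from blood formation and from its binding partner Foxp3. Its levels were 24.5, 29.3, 24.8, and 27.0 FPKM in Th17 libraries and 7.22, 8.73, 11, and 9.61 FPKM in Th0 libraries. Every Th17 library lay above every Th0 library. The group means were 26.4 ± 2.24 and 9.14 ± 1.58 FPKM (SD, n = 4), a ratio of 2.89, and the log2 fold change on log2(FPKM + 1) was 1.44 (SE 0.13, limma adjusted p = 0.00016). In iTreg libraries Runx1 was at 17.1, 20, 19.4, and 21.6 FPKM, again above every Th0 library. The mean of 19.5 ± 1.87 FPKM (SD, n = 4) stood against 9.04 ± 1.56 FPKM in Th0 cells as scaled in the iTreg table, a ratio of 2.16, with a log2 fold change of 1.04 (SE 0.13, limma adjusted p = 0.0011). Within a heading, Runx1 differed from Th0 by 1.1 to 1.64 in Th17 and by 0.78 to 1.15 in iTreg libraries on that log2 scale. Of the exonic bases of Runx1, 0.881% are shared with a gene on the opposite strand, and reads were counted without strand.

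Runx2 (chr17:44495987-44814797, minus strand), best known as the regulator of bone-forming cells, was low in Th0 cells and had the largest rise of the 3 RUNX genes in Th17 cells. Th17 libraries held 5.36, 3.66, 4.83, and 3.39 FPKM and Th0 libraries 0.734, 0.432, 0.303, and 0.513 FPKM. The groups did not overlap. The means were 4.31 ± 0.936 and 0.495 ± 0.181 FPKM (SD, n = 4), a ratio of 8.70, and the log2 fold change was 1.82 (SE 0.15, limma adjusted p = 8.7e-05). A pseudocount of 0.1 in place of 1 gave 2.91, since the larger pseudocount shrinks changes of low genes. The FPKM values stood for 24 to 47 reads per Th0 library and 261 to 374 reads per Th17 library, so counting error alone reached 20.4% of the value in the Th0 library with the fewest Runx2 reads. In iTreg libraries Runx2 was at 1.41, 0.722, 0.778, and 0.849 FPKM against 0.725, 0.428, 0.3, and 0.507 FPKM in Th0 libraries. The groups overlapped by the lowest iTreg and the highest Th0 library, and iTreg was above Th0 within all 4 headings (by 0.27 to 0.48 on the log2 scale). The two-sided exact permutation test gave p = 0.057, and limma without the filter gave a log2 difference of 0.38 (SE 0.14, adjusted p = 0.1). Runx2 shares 5.87% of its exonic bases with Runx2os1 on the opposite strand, whose reads cannot be told apart here.

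Runx3 (chr4:135120652-135177990, plus strand), the RUNX factor of CD8 T cells and of T helper 1 cells, was up-regulated in Th17 but not in iTreg cells. Th17 libraries held 18.0, 13.9, 18.9, and 13.3 FPKM, and Th0 libraries held 8.78, 5.56, 6.45, and 5.09 FPKM. The lowest Th17 library was above the highest Th0 library. The means were 16 ± 2.83 and 6.47 ± 1.64 FPKM (SD, n = 4), a ratio of 2.48, with a log2 fold change of 1.2 (SE 0.18, limma adjusted p = 0.0019). In iTreg libraries Runx3 was at 6.5, 5.31, 6.22, and 4.62 FPKM, within the range of Th0 libraries or just under it. The log2 difference to Th0 was -0.14 (SE 0.16, limma adjusted p = 0.64), and iTreg was the lower within all 4 headings, with log2 differences of -0.37 to -0.03. Whether the Runx3 difference itself differs between Th17 and iTreg cells was not tested, because the tables were scaled separately and share the Th0 libraries.

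**Figure D2:**
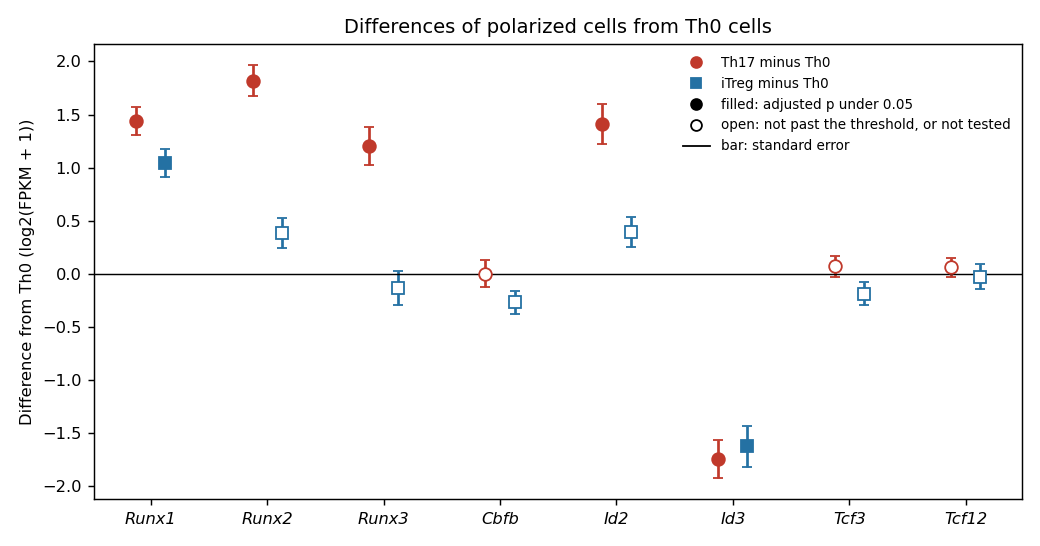
Log2 fold change with its standard error (limma, log2(FPKM + 1)) of each gene in Th17 and in iTreg cells compared to Th0, where 0 is no difference. Runx1 and Id3 were DE in both comparisons, Runx2, Runx3, and Id2 in Th17 cells, and Tcf3 and Tcf12 lie near 0.

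Summed over the 3 RUNX genes, FPKM was 14.7 to 17.7 in Th0, 43.7 to 48.5 in Th17, and 25 to 27.0 in iTreg libraries, so the groups did not overlap. Levels of iTreg libraries come from the other table, in which the FPKM of the same Th0 libraries were 0.988 to 0.991 times those of the Th17 table. The mean share of Runx1 in the sum was 56.9% in Th0, 56.6% in Th17, and 74.6% in iTreg libraries. Runx3 made up 40%, 34.2%, and 21.8%, and Runx2 3.1%, 9.18%, and 3.63% of the sum in the same order. The iTreg sum was thus mainly Runx1, while in Th17 libraries Runx3 held 29.7% to 38.9% and Runx2 7.75% to 11.2%.

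**Figure D3:**
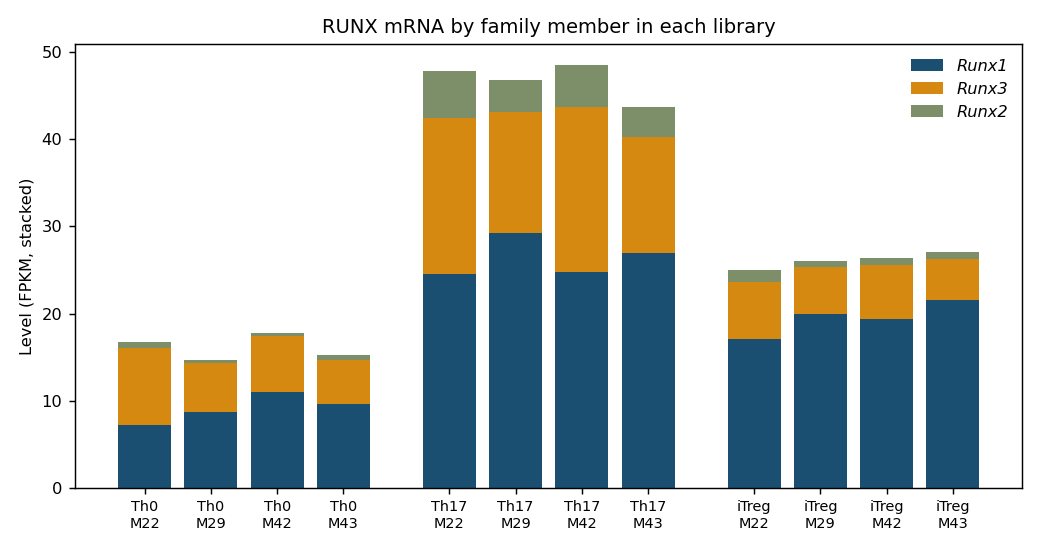
Stacked FPKM of Runx1, Runx2, and Runx3 in each of the 12 libraries, on an axis that starts at 0. The stack is highest in Th17 libraries (43.7 to 48.5 FPKM), and the Runx3 segment is 17.1% to 26.0% of the stack in iTreg libraries.

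The RUNX rise was not matched by the partner gene. Cbfb (chr8:105170674-105217989, plus strand) was at 77.9, 83.7, 102.0, and 87.4 FPKM in Th17 and 78.1, 86.1, 103.0, and 84.0 FPKM in Th0 libraries. Libraries with the same heading had nearly the same value, and the ratio of the means was 0.999 (SE of the log2 difference 0.13, limma adjusted p = 1.0). In iTreg libraries Cbfb was at 68.6, 68.0, 75.6, and 73.3 FPKM, below all Th0 libraries as scaled in that table (77.2, 85.3, 102.0, and 83.0 FPKM). The ratio of the means was 0.822 and the log2 difference -0.27 (SE 0.11). It did not pass limma (adjusted p = 0.12) without the block and passed it with the block (adjusted p = 0.025), and the two-sided exact permutation test gave p = 0.029, the smallest that 4 against 4 libraries allow. Cbfb FPKM was 4.67 to 5.84 times the RUNX sum in Th0 libraries, 1.63 to 2.11 times in Th17 libraries, and 2.61 to 2.86 times in iTreg libraries. It exceeded the RUNX sum in each of the 12 libraries, and the 3 groups did not overlap in this quotient.

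Id2 (chr12:25093799-25097140, minus strand), the ID protein of effector and innate lymphocytes, was at 185, 158, 197, and 109 FPKM in Th17 and 68.0, 62.3, 57.0, and 50 FPKM in Th0 libraries. The lowest Th17 value was in library M43, still above every Th0 library. The means were 162 ± 39.0 and 59.3 ± 7.66 FPKM (SD, n = 4), a ratio of 2.73, and the log2 fold change was 1.41 (SE 0.19, limma adjusted p = 0.0012). Without Th17 library M43 it was 1.59 (limma adjusted p = 0.00036). In iTreg libraries Id2 was at 67.8, 81.5, 92.4, and 68.2 FPKM, and the highest Th0 library of that table was at 67.2 FPKM. The groups were thus separated by less than 1 FPKM, with a two-sided exact permutation p of 0.029. The log2 difference of 0.39 (SE 0.14) did not pass limma without the block (adjusted p = 0.093) and passed it with the block (adjusted p = 0.032), and within headings it ran from 0.01 to 0.7.

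Id3 (chr4:136143497-136145755, plus strand), the ID protein kept high in naïve and follicular T cells, fell in both cultures. It was at 42.6, 59.3, 59.3, and 42.7 FPKM in Th0 libraries and at 14.1, 10.8, 15.2, and 17.5 FPKM in Th17 libraries, which did not overlap. The means were 51.0 ± 9.63 and 14.4 ± 2.79 FPKM (SD, n = 4), a ratio of 0.282, and the log2 fold change was -1.75 (SE 0.18, limma adjusted p = 0.00024). In iTreg libraries Id3 was at 21.2, 15.4, 13.9, and 12.3 FPKM, also without overlap with Th0. The ratio to Th0 was 0.311 and the log2 fold change -1.63 (SE 0.19, limma adjusted p = 0.00068). The Id3 values stood for 99 to 150 reads in Th17, 105 to 221 reads in iTreg, and 304 to 523 reads in Th0 libraries. Without iTreg library M22, which had the highest Id3 of that group, the log2 fold change was -1.78 (limma adjusted p = 0.00077).

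The E protein genes did not pass the test in either culture. Tcf3 (chr10:80409514-80433647, minus strand), which encodes the E2A proteins E12 and E47, was at 35.9, 34.3, 34.6, and 32.1 FPKM in Th17 libraries and at 35.7, 35.2, 28.4, and 31.7 FPKM in Th0 libraries. The Th17 values lay within the Th0 range or just above it, with a log2 difference of 0.07 (SE 0.1, limma adjusted p = 0.71). In iTreg libraries Tcf3 was at 32.6, 28.2, 26.4, and 26.0 FPKM, lower than Th0 within all 4 headings, and the log2 difference was -0.19 (SE 0.11, limma adjusted p = 0.32, and 0.073 with the block). Tcf12 (chr9:71842688-72111871, minus strand), which encodes HEB, was at 29.7, 30.0, 30.9, and 29.9 FPKM in Th17 libraries and at 26.4, 28.1, 31.6, and 29.5 FPKM in Th0 libraries. Its Th17 libraries had the narrowest spread of the 8 genes (30.1 ± 0.549 FPKM, SD, n = 4), inside the Th0 range, and the log2 difference was 0.06 (SE 0.09, limma adjusted p = 0.69). Tcf12 was at 24.6, 25.2, 29.5, and 33.1 FPKM in iTreg libraries, which spread to both sides of Th0, with a log2 difference of -0.03 (SE 0.12, limma adjusted p = 0.9). A p that misses the threshold does not show that the levels were equal.

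Against all genes tested, whose median absolute log2 fold change was 0.23 in Th17 and 0.21 in iTreg cells, Runx2, Id3, Runx1, Id2, and Runx3 ranked at the 97.1, 96.9, 95.6, 95.3, and 93.8 percentile of absolute change in Th17 cells. Runx2 passed the filter on low values only through its Th17 libraries, so its rank was partly set in advance. In iTreg cells Id3 and Runx1 ranked at the 97.8 and 94.5 percentile, Id2 at 73.9, Cbfb at 61.2, and Runx3 at 36.3. Tcf3 and Tcf12 ranked at 15.9 and 14.9 in Th17 cells and at 46.6 and 8.54 in iTreg cells. With its sign, the median log2 fold change of all genes tested was -0.0 in Th17 and 0.01 in iTreg cells.

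Ratios within a library do not depend on how its table was scaled, and are given as descriptions without a test. The gene lengths behind the FPKM are not known, and the sums, ratios, and orders between genes given here rest on them. The log2 ratio of Id2 to Id3 was 0.68, 0.07, -0.06, and 0.23 in Th0 libraries, so both genes were at similar FPKM. It was 3.71, 3.88, 3.7, and 2.64 in Th17 libraries and 1.68, 2.4, 2.74, and 2.47 in iTreg libraries. Th17 and iTreg libraries lay above all Th0 libraries, and overlapped each other only through Th17 library M43, without which the Th17 mean rose from 3.48 to 3.76. On the linear scale the geometric mean ratio was 1.17 in Th0, 11.1 in Th17, and 5.0 in iTreg cells.

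The log2 ratio of summed Id2 and Id3 to summed Tcf3 and Tcf12 was 0.83, 0.94, 0.96, and 0.6 in Th0, 1.6, 1.39, 1.7, and 1.03 in Th17, and 0.64, 0.86, 0.93, and 0.45 in iTreg libraries. Summed Id2 and Id3 transcripts were above summed Tcf3 and Tcf12 transcripts in every library. This ratio, which counts Id2 and Id3 only, was highest in Th17 cells, whose lowest library lay above every Th0 and iTreg library. Th0 and iTreg libraries overlapped, and within all 4 headings the iTreg library was the lower. These sums leave out Id1, which was at 8.45 to 13.1 FPKM in iTreg and 0.0 to 0.946 FPKM in Th0 libraries. With Id1 counted, the lower place of iTreg libraries would not hold in every heading. In iTreg library M42, Id2 and Id3 summed to 106 FPKM, Id1 was at 13.1 FPKM, and Tcf3 and Tcf12 summed to 55.9 FPKM. Th0 library M42 had 116, 0.229, and 60.0 FPKM in the same order. That iTreg library with Id1 would also lie above Th17 library M43 without it, where the sums were 126 and 62.0 FPKM. Id1 was not listed for Th17 cells, and no ratio with Id1 was tested. Id2 and Id3 summed to 92.7 to 122 FPKM in Th0, 126 to 212 in Th17, and 80.5 to 106 in iTreg libraries. Tcf3 and Tcf12 summed to 60.0 to 63.3, 62.0 to 65.6, and 53.4 to 59.1 FPKM in the same order. The log2 ratio of Runx3 to Runx1 was 0.28, -0.65, -0.77, and -0.92 in Th0, -0.44, -1.08, -0.39, and -1.02 in Th17, and -1.39, -1.91, -1.64, and -2.22 in iTreg libraries. Th0 and Th17 libraries overlapped, and all iTreg libraries lay below both. Runx3 exceeded Runx1 in 1 of the 12 libraries, Th0 library M22.

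**Figure D4:**
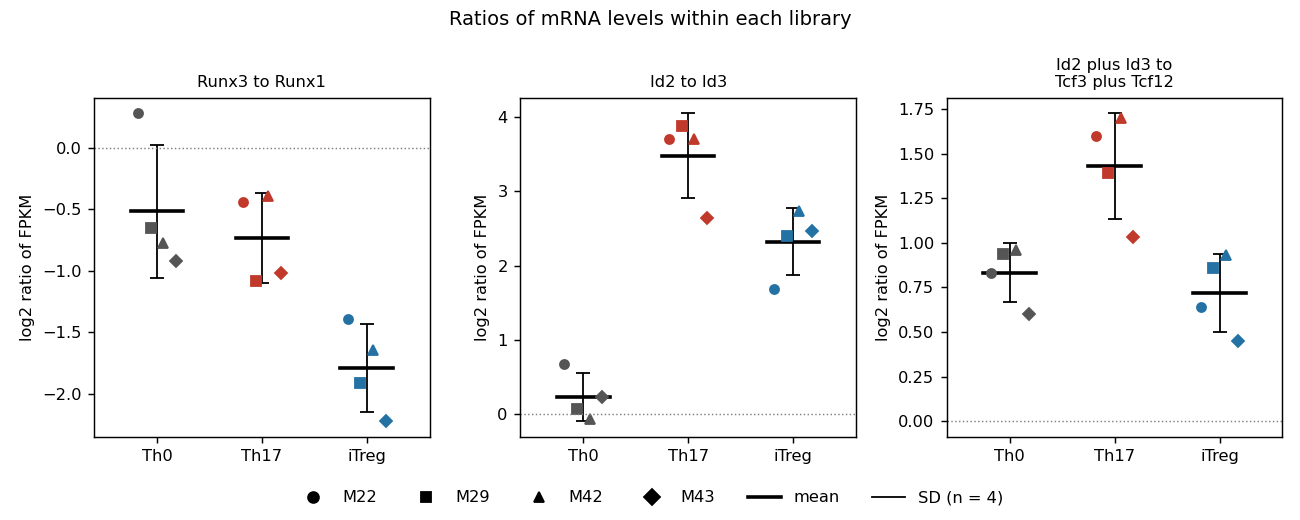
Log2 ratio within each library of Runx3 to Runx1, of Id2 to Id3, and of summed Id2 and Id3 to summed Tcf3 and Tcf12, with the group mean as a bar. Id2 to Id3 averages 0.23 in Th0, 3.48 in Th17, and 2.32 in iTreg cells, and Runx3 to Runx1 is lowest in iTreg cells (mean -1.79).

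In the order of FPKM within a group, Cbfb was highest in Th0 cells, followed by Id2, Id3, Tcf3, Tcf12, Runx1, Runx3, and Runx2. Ranges of Id2 and Id3, of Tcf3 and Tcf12, and of Runx1 and Runx3 overlapped there. In Th17 cells Id2 led, before Cbfb, Tcf3, Tcf12, Runx1, Runx3, Id3, and Runx2, and the Runx3 and Id3 ranges overlapped. In iTreg cells the order was Id2, Cbfb, Tcf3, Tcf12, Runx1, Id3, Runx3, and Runx2, with overlaps of Id2 and Cbfb, of Tcf3 and Tcf12, and of Runx1 and Id3. Id3 thus ranked below Id2 and above both E protein genes in Th0 cells and moved below Runx1 in both polarized cultures.

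Among 15 symbols known as RUNX partners, cofactors, or antagonists, 11 were tested in the Th17 table. Aes and Tle5, the latter not listed in either table, are names of the same gene. Of the 11, 3 were up-regulated (Tle2, Ets1, and Aes) and 2 down-regulated (Tle3 and Zbtb7b). Over all genes tested, 10.6% were up and 8.69% down, and the list's median log2 difference was -0.06. Tle3, a Groucho corepressor that RUNX proteins recruit, fell from 117 ± 6.96 to 38.7 ± 3.34 FPKM in Th17 cells (SD, n = 4), and the fitted log2 change was -1.57 (SE 0.1, limma adjusted p = 2.5e-05). Tle2, another Groucho corepressor, rose from 0.0969 ± 0.0451 to 3.31 ± 2.62 FPKM (SD, n = 4), and the fitted log2 change was 1.82 (SE 0.31, limma adjusted p = 0.0042), and passed the filter only through its Th17 libraries. In iTreg cells 10 genes of the list were tested, and 1 was DE: Tle3 at 33.2 ± 5.34 against 115 ± 6.83 FPKM (SD, n = 4), and the fitted log2 change was -1.78 (SE 0.12, limma adjusted p = 4.2e-05). The list's median was -0.26 there, and 8.36% of all genes tested were up and 8.21% down. The block made 1 gene of the list DE upward and 6 downward, beside 20.9% up and 20% down among all genes tested. Zbtb7b, which encodes Thpok, was at 25.4 ± 4.06 FPKM in Th17 and 35.9 ± 5.12 FPKM in Th0 cells (SD, n = 4), and the fitted log2 change was -0.49 (limma adjusted p = 0.047).

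Of 15 other helix-loop-helix genes and their partners, 4 were tested in the Th17 table and none passed (2 upward with the block). Among all genes tested there, 10.6% were up and 8.69% down (19.2% and 18.6% with the block). In the iTreg table, 8.36% of all genes tested were up and 8.21% down (20.9% and 20% with the block). Of this list 6 were tested there, with 1 up-regulated (2 with the block). That gene was Id1, another inhibitor of E proteins, at 12.2, 8.45, 13.1, and 10.5 FPKM in iTreg libraries and 0.0, 0.946, 0.229, and 0.34 FPKM in Th0 libraries. All iTreg libraries lay above all Th0 libraries, and the log2 fold change was 3.16 (SE 0.21, limma adjusted p = 4.1e-05). Id1 passed the filter only through its iTreg libraries, its Th0 values stood for 0 to 7 reads, and it was not listed in the Th17 table. The medians of this list were 0.41 in Th17 and 0.29 in iTreg cells, against -0.0 and 0.01 over all genes tested.

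Of 16 genes known as RUNX-regulated in T cells, 11 were tested in the Th17 table, with 4 up-regulated (among them Il17a, Itgae, and Il2rb) and 4 down-regulated (Gzmb, Il2, Cd4, and Ccl5), beside 10.6% up and 8.69% down among all genes tested. Il17a, Itgae, Gzmb, and Ccl5 passed the filter on low values through the group in which they were high, with at most 1 library of the other group above 1 FPKM, so their calls are no support. Il17a had the largest rise (7.27 to 65.2 FPKM in Th17 and 0.0 to 0.114 FPKM in Th0 libraries). The largest fall was of Gzmb, a cytotoxic granule protease, at 0.0634 ± 0.0824 against 9.27 ± 6.16 FPKM (SD, n = 4). In iTreg cells 9 were tested, with 4 up-regulated (among them Foxp3, Itgae, and Il2rb) and 3 down-regulated (Il2, Gzmb, and Ccl5), beside 8.36% up and 8.21% down among all genes tested, and Itgae and Gzmb again passed the filter through 1 group. Foxp3 was at 75.2 ± 13.5 against 4.84 ± 2.55 FPKM (SD, n = 4), and Il2, the T cell growth factor, at 2.43 ± 1.21 against 37.6 ± 15.4 FPKM (SD, n = 4, limma adjusted p = 0.00035). Genes of this list moved in both directions, and its median log2 difference was -0.14 in Th17 and -0.3 in iTreg cells.

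Of 12 genes known as E protein-regulated in lymphocytes, 8 were tested in each table. In Th17 cells 3 were up-regulated (among them Cxcr5 and Bcl6) and 3 down-regulated (Gata3, Cd4, and Gfi1), with a median of 0.1. Among all genes tested, 10.6% were up and 8.69% down. The block made it 4 up and 3 down by adding Notch1 (limma adjusted p = 0.022), beside 19.2% and 18.6% of all genes tested. Cxcr5, a chemokine receptor of follicular helper cells, went from 0.863 ± 0.374 to 33.9 ± 7.78 FPKM (SD, n = 4), and passed the filter through its Th17 libraries, with 1 Th0 library above 1 FPKM. Gata3, the T helper 2 factor, fell from 12.2 ± 2.91 to 2.4 ± 0.674 FPKM (SD, n = 4, limma adjusted p = 0.00025). In iTreg cells 3 were up-regulated (among them Foxp3 and Cxcr5) and 2 down-regulated (Gfi1 and Bcl6), with a median of -0.23. Among all genes tested, 8.36% were up and 8.21% down. The block made it 3 up and 3 down by adding Gata3 (limma adjusted p = 0.034), beside 20.9% and 20% of all genes tested. Cxcr5 passed the filter through its iTreg libraries there. Gfi1, a transcriptional repressor, was at 4.42 ± 2.11 against 22 ± 5.89 FPKM (SD, n = 4, limma adjusted p = 0.0011). Cd4 and Foxp3 are among the genes that stand in both regulated lists, and which factor acts on a gene was not measured.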

How the data were processed

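RNA from 12 cultures (Th0, Th17, and iTreg, 4 libraries each) had been sequenced. The submitters' processing notes name TopHat2 2.0.14, HTSeq, edgeR, and mm10. The authors counted reads per gene without strand, removed genes of low CPM, and deposited FPKM in 2 tables, each scaled on its own, beside columns of their own comparisons that were not used. Their gene annotation is not given in the sources read. Groups follow the labels and the column headings.

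A gene was tested where at least 4 of 8 libraries exceeded 1 FPKM. The fit on log2(FPKM + 1) used limma 3.58.1 (R 4.3.3) and Benjamini-Hochberg adjustment at 0.05, without a block, and this was tested on simulated data. The simulated libraries shared no effect within a heading, so the simulation cannot decide between fits with and without the block. Fold changes on log2(FPKM + 1) understate changes of low genes. Single genes were also compared by two-sided exact permutation tests (70 arrangements, smallest p 0.029). Sums and ratios used Python 3.11.15, pandas 2.3.3, and scipy 1.17.1. Nothing in the labels says whether cultures came from separate mice, so p-values measure the spread between these libraries. Libraries with the same heading beginning deviated together from their group means (correlations 0.45 to 0.784 for Th17 with Th0 and 0.662 to 0.769 for iTreg with Th0, across genes). Between different headings the correlations ran from -0.59 to 0.434 and from -0.576 to 0.248. A fit with the heading beginning as a block is therefore given where it changed a call. The sample labels number the experiments 1 to 4 and list Th0, Th17, and iTreg in each. The methods text describes 4 independent cultures and a pair-wise design, a pairing that the main fit leaves out. The headings carry no experiment number, so which heading belongs to which experiment is not given. Whole read numbers behind FPKM values of the named genes were recovered from their steps (tolerance 0.02 reads), and cover counting error only. Coordinates are from GENCODE M21 (GRCm38) and promoter windows from RefSeq (GRCm38.p6, 12 windows for the 8 genes). All 8 genes are named, with the most changed DE genes of each list in each direction and the 2 genes most like each in pattern, and most other DE members of a list are given by name. Some list and marker genes count in the totals and are not reported here by name. The genes and lists were chosen with earlier results of these data known. Alternatives were another pseudocount, no filter, trended robust limma, quantile normalization, the block, a stricter FDR, and leaving out each library.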

Additional observations from a re-analysis of the deposited data

Results flagged for a closer look

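The log2 ratio of Id2 to Id3 in Th17 library M43 was 2.64, against 3.7, 3.71, and 3.88 in the other Th17 libraries. The gap to the nearest library was 0.855 of the range of the group, above Dixon's 95% critical value for 4 samples. Of 33 groups of values examined in this way, 1 stood out, and chance gives about 1 in 20. The same library had the lowest Id2 (109 FPKM) and the highest Id3 (17.5 FPKM) of the Th17 group, and its Foxp3 was 42.5 FPKM. The part of that Foxp3 level in the ratio was not tested. Without this library all 5 DE genes remained DE in Th17 cells by limma.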

How the results depend on the processing

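Of 306 alternative values, 291 kept their direction and their side of the threshold or moved by less than the spread. With the replicate block on the heading beginning, DE genes rose from 1983 to 3882 in Th17 and from 1691 to 4170 in iTreg cells, and the iTreg count of the 8 genes rose from 2 to 4, since Cbfb (-0.27, limma adjusted p = 0.025) and Id2 (0.39, limma adjusted p = 0.032) passed. The block changed no other call among the 8 genes. At an FDR of 0.01, 995 genes were DE in Th17 and 778 in iTreg cells. Directions turned only for differences that had not passed the test: Cbfb in Th17 cells (0.04 with quantile normalization, -0.07 to 0.08 over libraries left out), Runx3 in iTreg cells (-0.23 to 0.00057, the latter without Th0 library M22), and Tcf12 in iTreg cells (-0.11 to 0.03). Leaving out any 1 library kept the counts of the 8 genes at 5 and 2, while DE genes ran from 1364 to 2237 in Th17 and from 1140 to 1521 in iTreg cells. Depth limits Runx2 most, with 24 reads in 1 Th0 library. With 4 libraries a group, exact permutation p-values cannot pass a correction over many genes.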

Other observations

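For the 7 genes tested in both tables, the genes most alike in pattern were those with the smallest root mean square difference over the 16 columns of both tables, after each gene's Th0 mean was subtracted on log2(FPKM + 1), among 10079 genes. Id3 was most like Filip1l (0.2), which differed from Th0 by -1.83 in Th17 and -1.62 in iTreg cells, and Atxn1 (0.31). Runx1 was most like Gmfb (0.19) and Ski (0.2), a corepressor of SMAD proteins that differed from Th0 by 1.39 in Th17 and 1.13 in iTreg cells. Runx3 was most like Ccng2 (0.23) and Fndc9 (0.26), and Id2 was most like Chmp4b (0.19) and Grhl1 (0.22). Cbfb was most like Cenpb and Dnajb1 (both 0.07), Tcf3 most like Lrrcc1 and Gsk3a (both 0.07), and Tcf12 most like Ube2v1 and Slc25a46 (both 0.06). The last 3 genes changed little, so many genes lie close to them.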
